A study of Mus musculus with 3 samples.

Results

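The genes described here are Trp53, its inhibitors Mdm2 and Mdm4, and 7 genes that p53 activates, namely Ccng1, Phlda3, Bbc3, Bax, Pmaip1, Zmat3 and Sesn2. They were taken by gene symbol, and all 10 were present among the 19381 genes of the table. RNA was sequenced from the proximal incisor mesenchyme of Gli1-CreER;Arid1afl/fl;Arid1bfl/fl mice, called DKO, which were 1 month old and were sampled 4 days after tamoxifen at 1.5 mg per 10 g of body weight. In these mice the Cre recombinase is made in Gli1-expressing cells, so only cells that had expressed Gli1 could lose the floxed Arid1a and Arid1b alleles, whose products bind DNA within the canonical BAF complex, a remodeler of chromatin. There were 3 DKO libraries and no other group was analysed here, so the values describe the pathway in this genotype and no change caused by the deletion can be read from them. Nothing in the labels ties each library to an animal of its own, and the SDs and tests may reflect technical spread alone.

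The transcription factor p53, encoded by Trp53, is held at a low protein level by MDM2, a ubiquitin ligase that marks it for degradation, and by MDM4, a relative of MDM2 that binds p53 and masks its activation domain. When DNA damage, nucleolar stress or oncogene activity loosens this hold, p53 accumulates and activates genes for cell cycle arrest, apoptosis, metabolism and its own inhibition, MDM2 included, which closes a feedback loop. Because p53 is controlled mainly as a protein, the Trp53 transcript does not measure p53 activity. In development, loss of this restraint is known to deplete neural crest cells, from which dental mesenchyme descends.

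p53 binds DNA as a tetramer, and its response element is a pair of copies of the p53 consensus decamer up to 13 bases apart. The decamer was searched in the RefSeq promoter windows of the members (GRCm38.p6, the assembly that mm10 names), each 300 bases long from 250 before to 50 after a transcript start. The decamer reads the same on both strands, so a single search covers both. Windows were found for 8 of the 10 members, all but Zmat3 and Pmaip1. A window with a pair that departed from the consensus in at most 1 base was found for Ccng1 and Bax, 2 of the 8, and for 1.24% of the 27025 genes with a window. The matched elements are shown because they are the closest to the consensus among the members, with the pair and any spacer in capitals, in the direction of transcription.
Ccng1: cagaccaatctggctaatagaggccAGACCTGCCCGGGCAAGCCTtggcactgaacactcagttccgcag
Bax: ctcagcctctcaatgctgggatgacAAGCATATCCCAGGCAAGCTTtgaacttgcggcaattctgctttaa

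The Ccng1 stretch lies at chr11:40755437-40755506 on the minus strand, and its pair begins 195 bases before the start with no spacer. The Bax stretch lies at chr7:45467065-45467135 on the minus strand, and its pair begins 212 bases before the start with a spacer of 1 base. Bbc3 (PUMA) is shown as a member whose closest adjacent pair, at chr7:16309461-16309530 on the plus strand, departed from the consensus in 3 bases. A window with a pair at least as close was found for 48.5% of genes, counting pairs up to 13 bases apart and not adjacent pairs alone. Departures were counted alike at every position. Those of Bbc3 lie in the opening bases of its decamers and that of Bax lies further inside, so their number does not rank the elements by binding.
Bbc3: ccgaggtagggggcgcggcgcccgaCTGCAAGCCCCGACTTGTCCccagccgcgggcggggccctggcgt

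A single exact decamer was present in the windows of 4 of the 8 members, Bax, Ccng1, Mdm2 and Trp53, and in those of 9.55% of all genes. The closest pair in the Mdm2 window departed from the consensus in 4 bases, and that of Trp53 in 3. The introns of Mdm2 beyond its window were not searched, so its decamer is not shown to be the element of the feedback loop. The decamers of Mdm2 (chr10:117710910-117710969, minus strand) and Trp53 (chr11:69580259-69580318, plus strand) are in capitals below, since these genes are the core of the feedback loop.
Mdm2: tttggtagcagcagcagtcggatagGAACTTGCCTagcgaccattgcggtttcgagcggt
Trp53: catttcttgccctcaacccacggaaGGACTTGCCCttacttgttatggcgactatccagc

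No annotated exon of the members overlaps the stretches shown. A match describes letters only, and no binding was measured.

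Values below are normalized counts as deposited, scaled to a common upper quartile and not divided by gene length, in the order of replicates 1, 2 and 3, with mean ± SD. Totals per library were 986401, 958773 and 966163 normalized counts. If the smallest value in a library stands for 1 read, these correspond to 33863066, 34900647 and 41477624 reads, but low values were not all whole multiples of it, so this depth is conditional. The floxed genes were still measured, Arid1a at 133 ± 3.04 and Arid1b at 50.7 ± 0.156 (SD, n = 3), but these values also count exons that are not floxed and cells that did not recombine, and so are no check of the knockout. The labelled tissue was checked against its markers: all 7 dental mesenchyme genes lay at means from 41.7 to 619, while the lymphocyte and neutrophil genes found, 3 of 4 listed, stayed at or below a mean of 1.36. Epithelial transcripts were present beside them, with Krt5 at a mean of 199, Krt14 at 156 and Cdh1 at 153, so the tissue was not mesenchyme alone. Replicate 1 stood apart in its interferon-stimulated genes, all 6 of which were highest there, and in its share of ribosomal RNA and mitochondrial genes, 12.4% against 9.12% and 8.82%. Markers of odontoblasts were lowest in replicate 2, 4 of 4 genes.

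Trp53 (ENSMUSG00000059552.13, chromosome 11, 69580359 to 69591873, plus strand) stood at 70.3, 82.7 and 86.3 (79.8 ± 8.40, SD, n = 3). Replicate 1 was the low library, and replicates 2 and 3 differed from each other 1.04-fold. The mean lay at percentile 73.5 of the 10388 genes with a mean of at least 10, on a scale with no correction for length.

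Of the inhibitors, Mdm2 (ENSMUSG00000020184.15, chromosome 10, 117688875 to 117710758, minus strand) was the steadiest member, at 48.4, 50.6 and 48.1 (49.0 ± 1.40). Its highest library exceeded its lowest 1.05-fold. Mdm4 (ENSMUSG00000054387.13, chromosome 1, 132959484 to 133030561, minus strand) stood at 191, 189 and 150 (177 ± 23.0). It was low in replicate 3, the library in which Trp53 was highest, and without replicate 3 the other libraries differed 1.01-fold. Mdm4 had the highest normalized count of the 10 members, a rank it did not hold per length, as its exons are long.

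Ccng1 (ENSMUSG00000020326.7, chromosome 11, 40748552 to 40755311, minus strand) encodes cyclin G1, which brings the phosphatase PP2A to MDM2. It stood at 127, 145 and 138 (137 ± 8.74), low in replicate 1 and second to Mdm4 in normalized count.

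Bax, Phlda3, Bbc3 and Pmaip1 act in or towards apoptosis. Bax (ENSMUSG00000003873.11, chromosome 7, 45461697 to 45466898, minus strand), the protein that forms pores in the outer mitochondrial membrane, stood at 19.4, 20.0 and 21.1 (20.2 ± 0.859). An annotated gene on the same strand, Gm45808, shares 192 bases of exon with Bax, or 12.2% of its exon length, and was at most at 0.229 in the table, so few reads were assigned to it. Phlda3 (ENSMUSG00000041801.5, chromosome 1, 135766119 to 135769136, plus strand), a pleckstrin-homology protein that competes with AKT for membrane lipids, stood at 16.9, 18.5 and 19.8 (18.4 ± 1.45). Both were lowest in replicate 1 and highest in replicate 3, over narrow ranges.

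The BH3-only genes, whose products set BAX and BAK free to act, were the weakest members. Bbc3 (ENSMUSG00000002083.13, chromosome 7, 16308393 to 16318205, plus strand), which encodes PUMA, stood at 5.65, 7.39 and 8.01 (7.02 ± 1.22). Its 1.42-fold range was the widest of the 10 members, with replicate 1 low, and without replicate 1 it was 1.08-fold. Pmaip1 (ENSMUSG00000024521.8, chromosome 18, 66458533 to 66465565, plus strand), which encodes NOXA, stood at 4.66, 5.22 and 5.03 (4.97 ± 0.284), a narrow range at a low level. Bbc3 and Pmaip1 were the members with a mean under 10, at percentiles 41.8 and 38.3 of all listed genes.

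Zmat3 (ENSMUSG00000027663.12, chromosome 3, 32334792 to 32366014, minus strand), a zinc-finger protein that binds RNA, stood at 54.8, 55.7 and 59.5 (56.6 ± 2.48). Sesn2 (ENSMUSG00000028893.8, chromosome 4, 132492032 to 132510501, minus strand), a leucine sensor that restrains mTORC1 through the GATOR complexes and is also activated by ATF4, stood at 31.7, 33.8 and 38.4 (34.6 ± 3.45). Both were lowest in replicate 1 and highest in replicate 3.

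**Figure D1:**
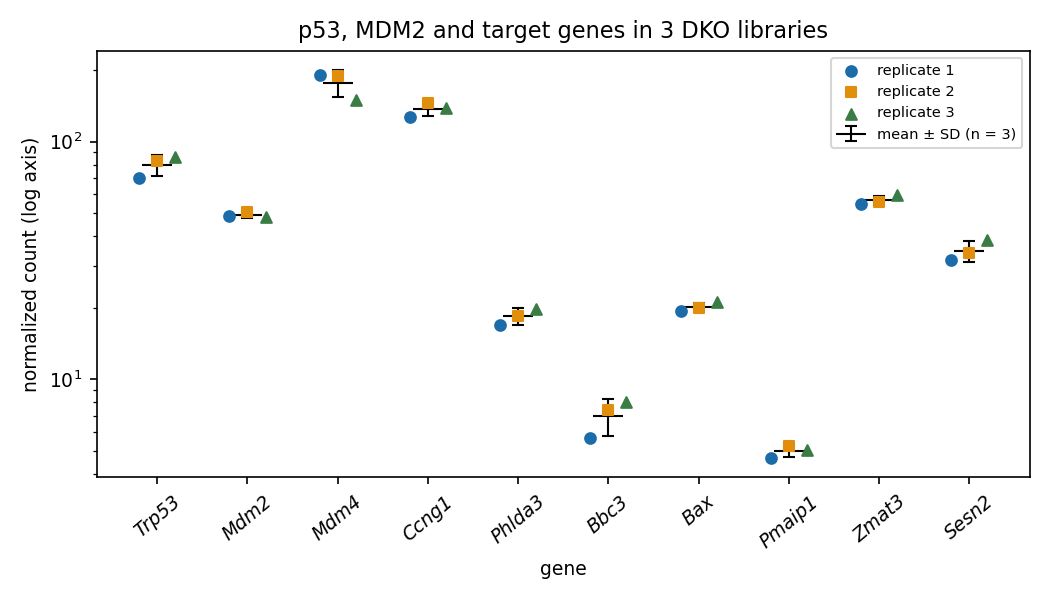
Normalized counts (vertical log axis) of the 10 genes in the 3 DKO libraries, with replicates as coloured symbols and the mean ± SD in black (n = 3). The members span from 4.97 for Pmaip1 to 177 for Mdm4, and the libraries of each gene lie close together on this scale.

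None of the 8 members with a mean of at least 10 had a highest library at least 1.5 times its lowest, and neither had Bbc3 or Pmaip1. Among all 10388 genes with a mean of at least 10, 6.15% reached that range, so 0 of 8 is near the background. The median range of the 8 members was 1.15-fold and that of all genes 1.15-fold, and the median coefficient of variation was 7.14% for the members and 7.20% for all genes. Both medians of the members were thus close to those of all genes, while the members differed among themselves. Of all genes with a mean of at least 10, 79.2% had a narrower range than Mdm4, 72.4% a narrower range than Trp53 and 11.8% a narrower range than Mdm2.

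**Figure D2:**
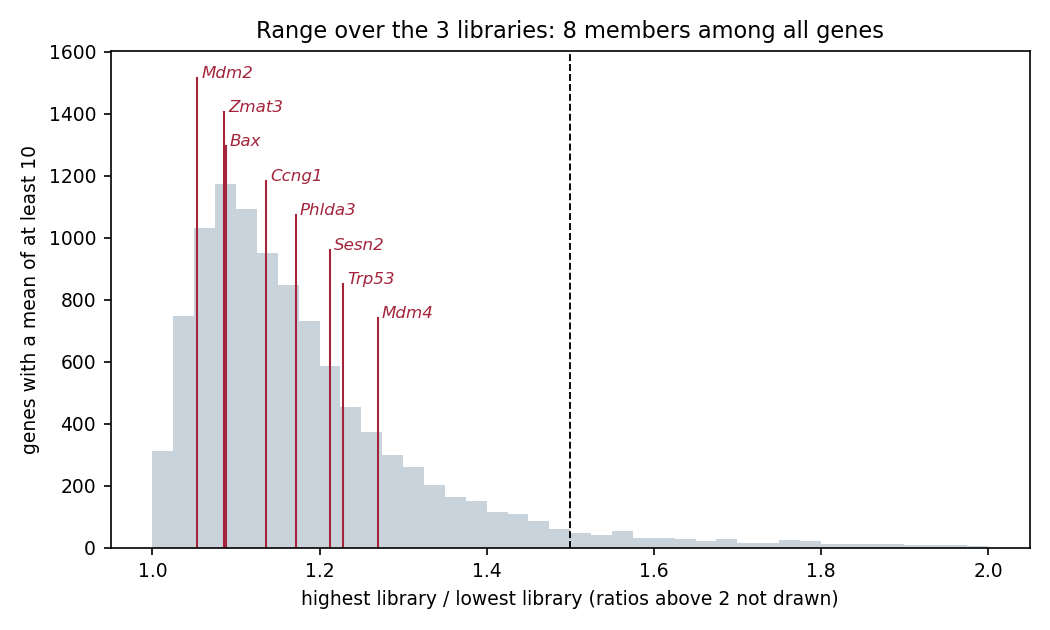
Distribution of the ratio of the highest to the lowest library for all genes with a mean of at least 10 (grey bars, number of genes), with the 8 members that pass that level as red lines at their own ratio and a dashed line at 1.5. The line heights only separate the names, and the members run from 1.05 for Mdm2 to 1.27 for Mdm4, all left of the dashed line.

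The spread was also set against counting error, under the condition that the smallest value of each library is 1 read and leaving out library preparation and PCR. For Pmaip1, Bax and Mdm2 the coefficients of variation (5.72%, 4.26% and 2.85%) were 0.780, 1.17 and 1.22 times the counting error of 7.34%, 3.64% and 2.33%. Under that condition, which the low values leave unsettled, their spread was near the size of counting error. For Mdm4 and Trp53 the coefficients of variation of 13.02% and 10.5% were 10.6 and 5.72 times the counting error. Ccng1, Sesn2, Bbc3, Phlda3 and Zmat3 lay between, at 4.57, 3.56, 2.78, 2.06 and 2.02 times.

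Most members, Trp53 among them, were lowest in the same library. Replicate 1 was the lowest library for 6 of the 8 members with a mean of at least 10 (Trp53, Ccng1, Phlda3, Bax, Zmat3 and Sesn2), against 38.1% of all genes at that level. Replicate 3 was the highest for 5 of the 8 (Trp53, Phlda3, Bax, Zmat3 and Sesn2), against 34.6% of all genes. Among the weak members, Bbc3 was lowest in replicate 1 and highest in replicate 3, and Pmaip1 was lowest in replicate 1 and highest in replicate 2. Mdm2 and Mdm4 did not share this order, as both were lowest in replicate 3. With libraries rescaled to equal totals Mdm2 was lowest in replicate 1 as well, giving 7 of 8 against 46.4% of all genes, and with ribosomal RNA and mitochondrial genes removed before rescaling the count was 6 of 8 against 33.5%. With 3 libraries of 1 group no test of this order was made, and 8 genes of 1 pathway in the same libraries are not replicates of each other.

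**Figure D3:**
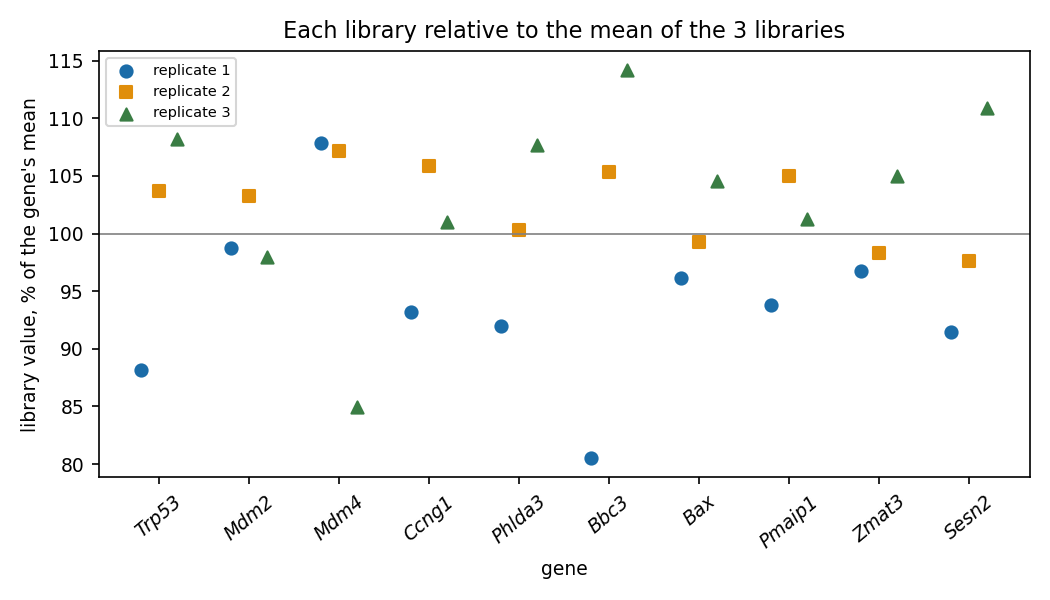
Each library as a percentage of the mean of the gene over the 3 libraries (vertical axis), by gene, with replicates as coloured symbols and the grey line at 100%. Replicate 1 (blue) lies below the line for every member except Mdm4, at 80.5% for Bbc3 and 88.1% for Trp53, and replicate 3 (green) lies at 85.0% for Mdm4.

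Other cell types and states moved with the libraries too. The 5 macrophage markers summed to 676, 936 and 966 and were all lowest in replicate 1, as were the 4 markers of cycling cells (sums of 523, 672 and 624) and the 4 endothelial markers (269, 288 and 385). Defining genes of these types were all well detected, with means from 32.8 to 267 for macrophages and from 73.4 to 88.2 for endothelium. The 6 interferon genes summed to 913, 159 and 167. These lists ranged over 1.43-, 1.28-, 1.43- and 5.75-fold between libraries, and their part in the order of the p53 targets was not tested. In bulk tissue, fewer cells of a type and less RNA per cell cannot be told apart. The interferon genes went the other way from Trp53, highest in replicate 1 where Trp53 was lowest. The members summed to 570, 608 and 575, a 1.07-fold range like that of the dental mesenchyme markers (1779, 1880 and 1902), and in this sum the low Mdm4 of replicate 3 offsets the higher Trp53 and Sesn2.

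**Figure D4:**
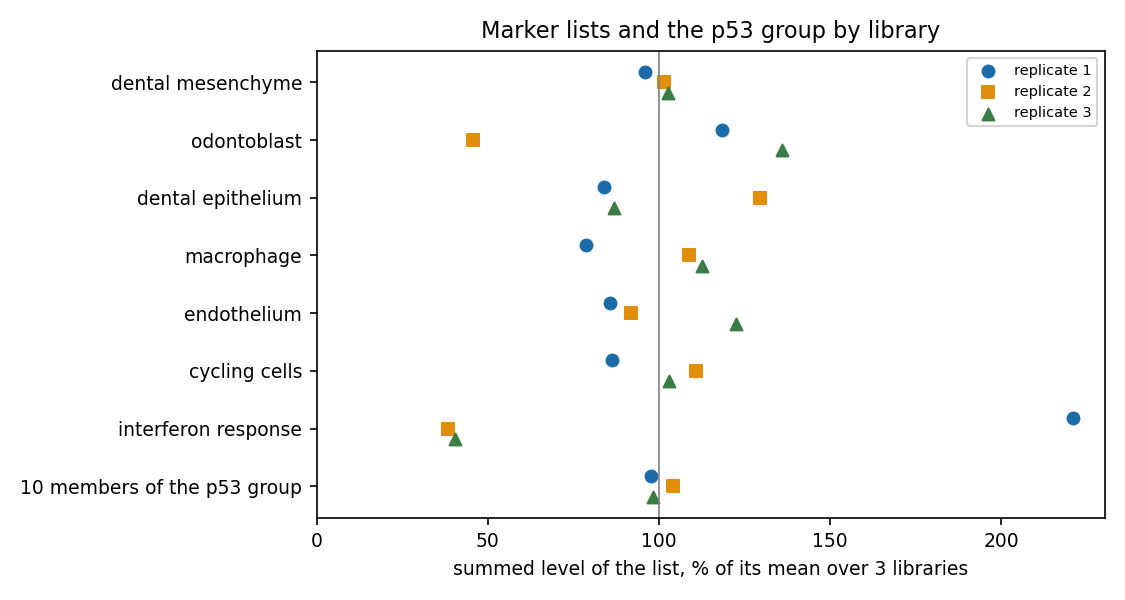
Summed level of each marker list and of the 10 members in each library, as a percentage of the mean of the sum over the 3 libraries (horizontal axis), with replicates as coloured symbols. The interferon list reaches 221% in replicate 1, the odontoblast list falls to 45.5% in replicate 2, and the members stay between 97.6% and 104.1%.

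Levels of different members were compared per kilobase of exon, with all annotated exons of a gene joined. On this scale Ccng1 was the most abundant member (36.3, 41.2 and 39.3 per kilobase), followed by Trp53 (17.4, 20.4 and 21.3) and Bax (12.3, 12.7 and 13.4). Neither Ccng1 and Trp53 nor Trp53 and Bax overlapped in their ranges over libraries. Bax, Mdm4, Phlda3, Sesn2 and Mdm2 came next, with means of 12.8, 11.9, 11.8, 9.97 and 9.65 per kilobase. Each neighbouring pair among these 5 genes overlapped in range. Phlda3 nonetheless lay above Sesn2 in every library, while the other neighbours changed order between libraries. Mdm2 lay wholly below Mdm4, Phlda3 and Bax. Zmat3 (4.95), Bbc3 (3.30) and Pmaip1 (1.82 per kilobase) followed, each below the one before in every library.

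The order depended on the length used. GENCODE joins exons of all transcripts, and for Trp53 this gives 4045 bases against 1867 for its longest coding transcript, while for Ccng1 both are 3512. Divided by the longest coding transcript, an alternative chosen after seeing the data, Trp53 came to 42.7 ± 4.50 per kilobase. Ccng1 stayed at 38.9 ± 2.49. Their ranges over libraries overlapped, but Trp53 lay above Ccng1 in every library. Mdm4 (14798 bases joined, 7105 in the longest coding transcript) then stood at 24.9 ± 3.24, ahead of Bax at 18.3 ± 0.781 and Mdm2 at 15.6 ± 0.444. The low end, Zmat3, Bbc3 and Pmaip1, was the same on both scales.

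**Figure D5:**
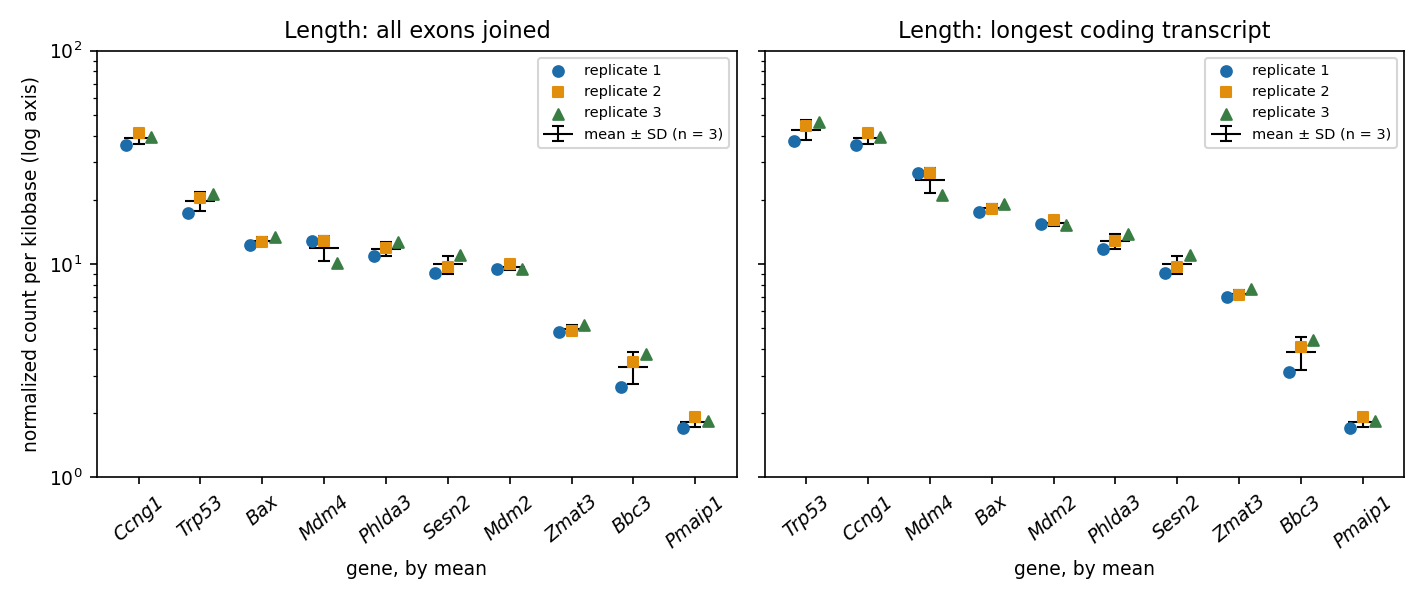
Normalized counts per kilobase (vertical log axis) of the 10 genes, ordered by mean, with length taken from all exons joined (left) or from the longest coding transcript (right), replicates as coloured symbols and mean ± SD in black (n = 3). Ccng1 leads on the left and Trp53 on the right, and Zmat3, Bbc3 and Pmaip1 close both panels.

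Within libraries, 5 differences of log2(value per kilobase + 1) were examined. Mdm2 lay below Trp53 by -0.96 ± 0.15 and below Mdm4 by -0.28 ± 0.16, so the transcript of the ligase was the scarcer of the inhibitor pair in all 3 libraries. That second difference ranged from -0.40 in replicate 1 to -0.09 in replicate 3, the library where Mdm4 was low. Bax exceeded Bbc3 by 1.69 ± 0.15, and Bbc3 exceeded Pmaip1 by 0.60 ± 0.16. Ccng1 exceeded Sesn2 by 1.87 ± 0.12. Each difference had the same direction in 3 of 3 libraries, and p was 0.25 for each (0.25 adjusted over the 5) by an exact permutation test that flips signs, two-sided, where 3 libraries allow no smaller p.

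Of the wider pathway, 86 of 87 listed genes were found, of which 66 reached a mean of 10. A range of at least 1.5-fold was found for 2 of the 66, Sfn and Dram1, beside the 6.15% of all genes given above. The 66 genes were lowest in replicate 1 in 28 cases (42.4%) and highest in replicate 3 in 24 (36.4%), close to all genes. The median range of the 66 was 1.13-fold.

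The cell cycle arrest targets had 1 of 7 genes past that range. Cdkn1a, the CDK inhibitor p21 and the classical arrest target, stood at 51.5, 56.1 and 58.3 (55.3 ± 3.46). Ccng2 (63.0 ± 7.24) and Plk2 (59.0 ± 4.39) had the highest normalized counts of that list together with Cdkn1a. Sfn, the 14-3-3 sigma protein of epithelia, stood at 12.7, 24.7 and 14.7 and was high in replicate 2, where all 6 dental epithelium markers were also highest (sums of 551, 850 and 569). The part of epithelial RNA in the Sfn value was not tested, and without replicate 2 its range was 1.16-fold. Trp63, the p53 relative of basal epithelium, was likewise highest in replicate 2, at 46.5, 59.9 and 41.8, and Trp73 stood at 3.52 ± 1.22.

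The apoptosis targets had 1 of 8 past the range. Trp53inp1 led with 352, 374 and 322 (349 ± 25.8), followed by the membrane protein Perp (237, 313 and 280) and the autophagy protein Ei24 (124, 110 and 120). Dram1, a lysosomal membrane protein, stood at 11.3, 15.9 and 18.4, low in replicate 1, and without replicate 1 its range was 1.15-fold. The macrophage, endothelial and cycling-cell markers were all lowest in replicate 1 too, and their part in the Dram1 value was not tested. The metabolism and repair targets had 0 of 9 past the range, with Ddit4, an mTORC1 inhibitor, at 157, 129 and 136, Sesn1 at 80.2 ± 2.37 and the peroxidase Gpx1 at 68.0 ± 4.94. With libraries rescaled to equal totals, Pltp, a lipid transfer protein of that list, passed as well, its range going from 1.47- to 1.50-fold.

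Of the BCL2 family genes that are partners of BAX, PUMA and NOXA, 0 of 8 with a mean of at least 10 reached the range, and this and the other list counts are too small to be set apart from the 6.15% of all genes. The prosurvival genes Mcl1 (185, 194 and 185) and Bcl2 (60.5, 58.6 and 48.4) and the BH3-only gene Bmf (77.4, 85.7 and 85.2) had the highest normalized counts of them. Per kilobase of exon, Mcl1 at 55.0 ± 1.44 and Bmf at 15.8 ± 0.888 lay above Bbc3 at 3.30 ± 0.576 and Pmaip1 at 1.82 ± 0.104 in every library. Among kinases and cofactors of p53, 0 of 11 passed the range, led by the acetyltransferases Ep300 (174 ± 8.58) and Crebbp (148 ± 5.28) and the deubiquitinase Usp7 (159 ± 6.85). On the MDM2 side 0 of 10 passed. The ribosomal proteins that bind MDM2, Rpl5 (592, 613 and 479), Rpl23 (529, 526 and 469) and Rpl11 (292, 292 and 282), were lowest in replicate 3. Rpl11 ranged only 1.03-fold, and 5 of the 10 genes on the MDM2 side were highest in replicate 3. Near-identical pseudogene copies of ribosomal protein genes may share their reads.

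Among paralogs of the targets, 0 of 5 with a mean of at least 10 passed the range. The sestrins differed widely in level. Per kilobase of exon Sesn3, which FOXO factors are known to activate, stood at 93.8 ± 10.8, Sesn1 at 20.1 ± 0.596 and Sesn2 at 9.97 ± 0.992 (SD, n = 3), in the same order in every library. The genes of GATOR subunits and Rag GTPases, through which sestrins act on mTORC1, had 0 of 9 past the range. Seh1l, a GATOR subunit, stood at 92.5 ± 6.24. The Rag GTPase genes Rragc and Rraga stood at 78.8 ± 4.11 and 76.8 ± 3.68.

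The genes closest to Trp53 in level and library pattern, by the smallest maximal difference of log2(value + 1) over the 3 libraries, were Kpna2 (70.2, 83.9 and 85.8), Pdgfc (71.5, 82.6 and 88.1) and Entpd1 (73.3, 81.5 and 86.7). Their largest differences from Trp53 were 0.02, 0.03 and 0.06. With 3 libraries such likeness in values is a description only.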

How the data were processed

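Bulk RNA-seq values for 3 DKO libraries were used as deposited. They are normalized signal per gene, called normalized counts by the authors. The 75th percentile was 44.7 in each deposited column, and the values are not divided by length. Reads were aligned with TopHat2 2.0.8 to mm10, per the submitters' processing notes. No source used here names the counter, gene annotation, strand setting or filters. Each column was assigned by the number it shares with a library name. Whole reads could not be recovered, so no count model was fitted. The other deposited columns used were gene positions. Exon lengths came from GENCODE M21, whose start matched the deposited start for all 10 members, and ends are those of GENCODE. Computation used Python 3.11.15 and pandas 2.3.3. Simulated data with a known shift in 1 library checked only that the range rule counts such a shift, and lend the counts no support. Ranges are ratios of the highest to the lowest library with no pseudocount, at a mean of at least 10. Log2 differences used a pseudocount of 1, which understates differences between low values. Named genes were all members, the 3 highest of each wider list, list genes past a 1.5-fold range, and the 3 genes nearest to Trp53. Values of markers, the floxed genes and Gm45808 stand outside this rule. The members and lists were chosen with earlier results of these data known. Alternatives were other scalings, pseudocounts, filters and lengths and leaving out each library.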

Additional observations from a re-analysis of the deposited data

How the results depend on the processing

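The levels of the 10 members moved by less than 1 SD in all 20 rescalings. Rescaling keeps the average library total, and the factors for equal totals were 0.984, 1.01 and 1.00, so these means could hardly move. Leaving out a library cannot move a mean of 3 that far either, so neither setting is a test of the levels. With no filter on low values and under both rescalings, 0 members reached a 1.5-fold range. The other settings run for that count, a pseudocount, a higher filter or ratio and a left-out library, could not raise it from 0. The 10 alternatives of length reversed none of the 5 within-library differences, and the pseudocounts and left-out libraries could not have reversed them. The 2 wider genes past 1.5-fold became 3 with libraries rescaled to equal totals, 1 with a pseudocount of 10, 8 with no filter on low values and 0 at a mean of at least 100, because the last 3 of these settings damp low genes, admit them or remove them, and 1 with each library left out. In the order per kilobase, 3 of 10 members kept their rank without division by length, 3 with the longest coding transcript and between 6 and 8 with a library left out, the fewest without replicate 3. If the smallest value of each library is 1 read, which was not settled, the spread of Pmaip1 between libraries was within counting error. No comparison between groups, paired or not, was possible because there is a single group.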
